A study of Mus musculus with 6 samples.

Results

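The immediate early genes described here are those of the AP-1 and EGR transcription factors, with 3 genes that switch on alongside them (Ier2, Ier3 and Dusp1). They were chosen by gene symbol from a list of 10, of which 9 had a row among the 14238 genes of the deposited table and all 9 passed the low-count filter that left 13260 genes for testing. Egr1 was not analysed here. RNA came from Ba/F3, a mouse pro-B line that grows only with interleukin-3, carrying an ETV6::FRK fusion behind a doxycycline-switched retroviral promoter (Retro-X Tet-On Advanced). In the fusion, part of ETV6, a transcription factor, is joined to FRK, a tyrosine kinase. The induced group (fusion on) received 500 ng/ml doxycycline, and its titles read DOXp-IL3n. The control group carries the same construct, received no doxycycline and reads DOXn-IL3p. Each group had 3 libraries, taken 48 h after seeding, with titles that begin EF1, EF2 and EFPC, so each induced library has a control library of the same prefix and replicate number. The labels explain neither the prefixes nor the IL3 marks, and they do not say whether the 3 cultures were separate experiments, so p-values measure only the spread between these cultures. The drug, the fusion and the IL3 mark change at once, and their effects cannot be told apart.

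Immediate early genes are transcribed within minutes of a signal from growth factor or cytokine receptors, without new protein synthesis. MAP kinases carry the signal to serum response factor and its ETS-family partners on their promoters, and the transcripts are short-lived. Proteins of the Fos and Jun families pair through leucine zippers to form AP-1, EGR proteins are zinc finger factors, and phosphatases such as DUSP1 switch the MAP kinases off again.

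Egr2, Fos, Jun and Junb passed the test when the EFPC pair was left out, as given further on, and the 250 bases before their start sites are shown for that reason. Regulatory elements further upstream lie outside these windows. The sequences are from RefSeq (GRCm38.p6), read 5′ to 3′ along the gene's strand, and capitals mark matches to the motifs named after them.
Egr2, chr10:67537619-67537868, plus strand: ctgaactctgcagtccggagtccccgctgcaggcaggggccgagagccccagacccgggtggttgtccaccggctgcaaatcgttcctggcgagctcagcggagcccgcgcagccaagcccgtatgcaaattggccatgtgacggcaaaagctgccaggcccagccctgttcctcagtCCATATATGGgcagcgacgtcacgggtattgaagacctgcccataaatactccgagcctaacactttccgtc
Fos, chr12:85473640-85473889, plus strand: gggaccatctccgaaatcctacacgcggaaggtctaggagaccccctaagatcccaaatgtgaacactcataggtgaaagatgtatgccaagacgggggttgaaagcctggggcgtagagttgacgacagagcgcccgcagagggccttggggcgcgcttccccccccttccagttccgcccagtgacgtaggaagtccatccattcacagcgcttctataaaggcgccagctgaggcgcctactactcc
Jun, chr4:95052223-95052472, minus strand: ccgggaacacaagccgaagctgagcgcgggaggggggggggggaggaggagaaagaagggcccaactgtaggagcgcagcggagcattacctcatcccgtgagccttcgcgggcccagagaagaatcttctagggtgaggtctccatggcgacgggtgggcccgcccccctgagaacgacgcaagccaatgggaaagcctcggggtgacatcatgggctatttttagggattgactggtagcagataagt
Junb, chr8:84978749-84978998, minus strand: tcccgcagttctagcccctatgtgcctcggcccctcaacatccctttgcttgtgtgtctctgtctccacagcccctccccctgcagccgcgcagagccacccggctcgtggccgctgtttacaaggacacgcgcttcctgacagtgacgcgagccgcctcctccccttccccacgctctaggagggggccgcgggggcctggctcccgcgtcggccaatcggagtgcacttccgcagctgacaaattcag
Windows were found for 8 of the 9 members, the exception being Ier2, and Egr2 has 5 listed starts, of which the third is shown, chosen because its window holds a CArG box. Both strands were searched for 5 motifs, none of which overlapped another: the CArG box bound by serum response factor, the AP-1 site TGANTCA, the cyclic AMP response element TGACGTCA, the EGR site GCGNGGGCG and the STAT site TTCNNNGAA. The Egr2 window shown holds the CArG box CCATATATGG 72 to 63 bases before the start, and the windows of the fourth start and of the fifth, which overlap it, hold the same box. The window of the second start holds a different one, CCTTTTTTGG, and that of the first start none. A CArG box was present in 1.47% of 32851 single windows of the same length and in at least 1 window of 10.4% of the 77 genes that, like Egr2, have 5 listed starts. The EGR site matched in the Fosb window (4.70% of windows) and the cyclic AMP response element in the Dusp1 window (1.55%). The AP-1 site (6.75% of windows) and the STAT site (7.02%) matched in no member window, and the Fos, Jun and Junb windows held none of the 5 motifs. Only these exact patterns were searched, so variants of them, such as tgacatca in the Jun window, were not counted. These are matches of letters, and nothing about binding was measured.

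Total counts were 31138705, 40008727 and 43177842 in induced and 40179759, 30970019 and 36376467 in control EF1, EF2 and EFPC libraries. Etv6, the mouse gene of one fusion partner, had 259, 230 and 120 CPM in induced and 86.2, 81.3 and 94.6 CPM in control libraries, so the induced EFPC library lay nearest to the controls. CPM here are read counts scaled to the library's TMM-adjusted total. The Etv6 log2 fold change was 1.22 by edgeR (SE 0.282, adjusted p = 0.153) and 1.23 by DESeq2 (SE 0.307, adjusted p = 0.00302). Frk was not analysed here. Of 12 B lineage markers, Cd79b and Cd79a had a row, at summed levels of 6.38, 5.75 and 13.8 CPM in induced and 12.3, 16.9 and 13.7 CPM in control libraries. Of 9 haematopoietic and interleukin-3 receptor markers, 8 were present. Csf2rb and Csf2rb2, which encode beta chains of the interleukin-3 receptor, summed to 6320, 6580 and 2400 CPM in induced and 1530, 1580 and 1660 CPM in control libraries (DESeq2 adjusted p = 0.000676 and 0.000179, edgeR no call). The other 6 summed to 1340, 1340 and 1950 CPM in induced and 1500, 1540 and 1500 CPM in control libraries. The most abundant of them, Gata2, had 652, 668 and 1190 CPM in induced and 996, 1020 and 1010 CPM in control libraries. Of the 6 only Runx1 passed DESeq2, at 150, 154 and 182 CPM in induced and 99.5, 90.4 and 101 CPM in control libraries (DESeq2 adjusted p = 0.000367, edgeR no call). Monocyte and neutrophil markers summed to 16.6 to 40.7 CPM in induced and 32.3 to 44.4 CPM in control libraries over 5 of 10 genes. Of these Adgre1 was lower by DESeq2, at 6.05, 11.4 and 5.92 CPM in induced and 14.9, 18.6 and 24.3 CPM in control libraries (DESeq2 adjusted p = 0.00569, edgeR no call). Only Lck of 8 T and NK cell markers and Col1a1 of 7 fibroblast markers had a row, at no more than 3.99 and 0.656 CPM in induced and 5.03 and 0.714 CPM in control libraries. The part of these shifts in the results below was not tested. In bulk RNA, fewer cells that express a gene and less RNA per cell cannot be told apart.

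Egr2, Fos, Jun and Junb were higher in the induced EF1 and EF2 libraries than in every control and not in the induced EFPC library, as was Dusp1 by a smaller margin. Their edgeR log2 fold changes over all 3 pairs were 2.05, 1.89, 1.43 and 1.0, none of which passed the test. The induced EFPC library also had the lowest Etv6 level of its group, 120 CPM, and the part of this in the member values was not tested. By edgeR's quasi-likelihood test with Benjamini-Hochberg adjustment, 0 of the 9 members passed an adjusted p of 0.05, where 0 of all 13260 genes did (0.0%). At an unadjusted p under 0.05, 3 members and 2329 genes (17.6%) were reached, the members being Egr2, Jun and Ier3. By DESeq2, 0 of 9 members passed, against 906 of 13122 genes (6.9% of those tested, 4.25% higher and 2.65% lower). With the replicate block DESeq2 again called 0 members, with no adjusted p for Fosb, against 11.1% of genes, 6.4% higher and 4.73% lower. The induced and control libraries overlapped for all 9 members, whereas 24.1% of all tested genes had groups that did not overlap (11.2% with the induced group higher). The median log2 fold change was 0.68 over the members and -0.01 over all tested genes.

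**Figure D1:**
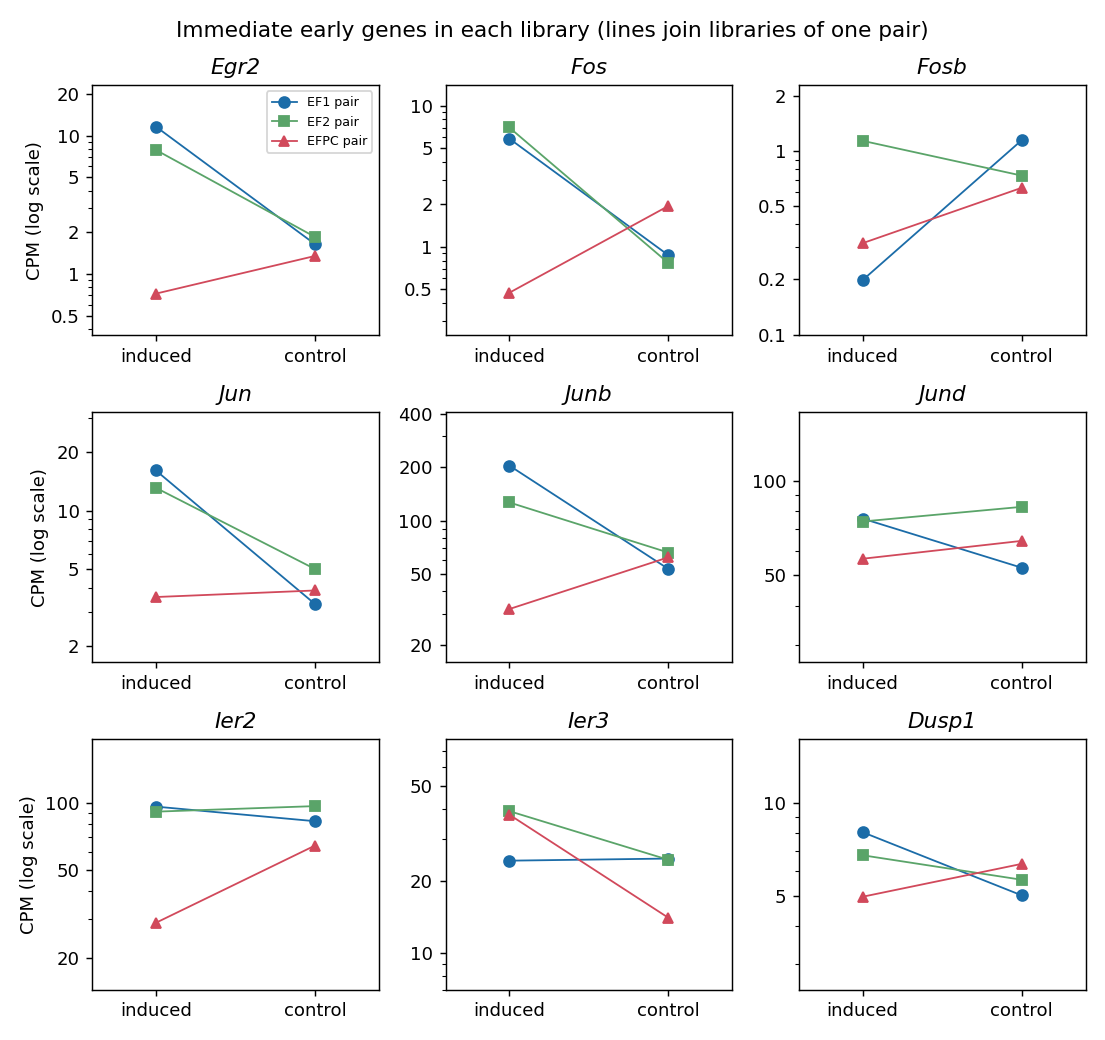
CPM (log scale) of the 9 members in induced and control libraries, 1 panel per gene, with a line joining the 2 libraries of each pair. For Egr2, Fos, Jun and Junb the induced EF1 and EF2 points stand above every control, while the induced EFPC point lies below all controls for Egr2, Fos and Junb.

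Egr2, an EGR zinc finger factor (chromosome 10, 67534469 to 67542188, GRCm38.p6), had 11.6, 7.87 and 0.721 CPM in induced EF1, EF2 and EFPC and 1.64, 1.85 and 1.35 CPM in control EF1, EF2 and EFPC libraries. The induced EF1 and EF2 values exceeded every control and the induced EFPC value was under every control. The group means were 6.72 ± 5.51 CPM in induced and 1.61 ± 0.256 CPM in control libraries (SD, n = 3 each). Egr2 had a log2 fold change of 2.05 (SE 0.836), with adjusted p = 0.27 in edgeR and 0.0605 in DESeq2. Within the induced group the highest library was 16.0 times the lowest, against 1.38 times among the controls.

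Fos, the founding partner of AP-1 (chromosome 12, 85473890 to 85477274), had 5.85, 7.01 and 0.473 CPM in induced and 0.872, 0.768 and 1.95 CPM in control libraries, in the same order. Again the induced EF1 and EF2 libraries lay above all controls and the induced EFPC library below them. These values rest on 177, 278 and 21 reads in induced and 35, 24 and 71 reads in control libraries. For Fos the log2 fold change was 1.89 (SE 0.884), with adjusted p = 0.32 in edgeR and 0.127 in DESeq2. Among the controls, EFPC was the highest for Fos, whereas it was the lowest for Egr2.

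Fosb, the close relative of Fos (chromosome 7, 19302696 to 19310118), was the lowest member, with 0.198, 1.14 and 0.315 CPM in induced and 1.15, 0.736 and 0.632 CPM in control libraries. It was read 6, 45 and 14 times in induced and 46, 23 and 23 times in control libraries. The induced EF2 library lay within the range of the controls and the other two induced libraries below it, a log2 fold change of -0.60 (SE 0.646, edgeR adjusted p = 0.666). It was -1.65 without the induced EF2 library and 0.08 without the EF1 pair. Fosb thus gave values unlike those of Fos in the EF1 pair, where Fos was higher and Fosb lower in the induced library.

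Jun, which forms AP-1 with Fos proteins or with itself (chromosome 4, 95049036 to 95052222), had 16.1, 13.1 and 3.58 CPM in induced and 3.29, 4.99 and 3.87 CPM in control libraries. The induced EFPC library lay inside the range of the controls and the other two induced libraries above it. Its log2 fold change was 1.43 (SE 0.523), with adjusted p = 0.233 in edgeR and 0.0555 in DESeq2. An antisense gene, Junos, overlaps its exons in GENCODE M21, and the sources used here do not say whether reads were counted by strand.

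Junb, the Jun family member with the highest TPM in every library but induced EFPC (chromosome 8, 84976909 to 84978748), had 205, 127 and 31.8 CPM in induced and 53.5, 66.2 and 62.3 CPM in control libraries. The induced EF1 and EF2 libraries were above, and the induced EFPC library below, all 3 controls. The means were 121 ± 86.8 CPM in induced and 60.7 ± 6.48 CPM in control libraries (SD, n = 3 each). With a log2 fold change of 1.0 (SE 0.567), Junb had adjusted p = 0.397 in edgeR and 0.268 in DESeq2.

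Jund, the Jun protein that many resting cells keep (chromosome 8, 70697739 to 70700616), had 75.8, 74.2 and 56.5 CPM in induced and 52.9, 82.6 and 64.4 CPM in control libraries. All 3 induced values lay within the range of the controls, and the log2 fold change was 0.05 (SE 0.206, edgeR adjusted p = 0.929), turning negative without EF1 of either or both groups (-0.03 without the induced, -0.1 without the control library and -0.17 without both). Exons of Junb, Jund and Dusp1 overlap those of Prdx2, Gm11175 and Ergic1 on the opposite strand in GENCODE M21.

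**Figure D2:**
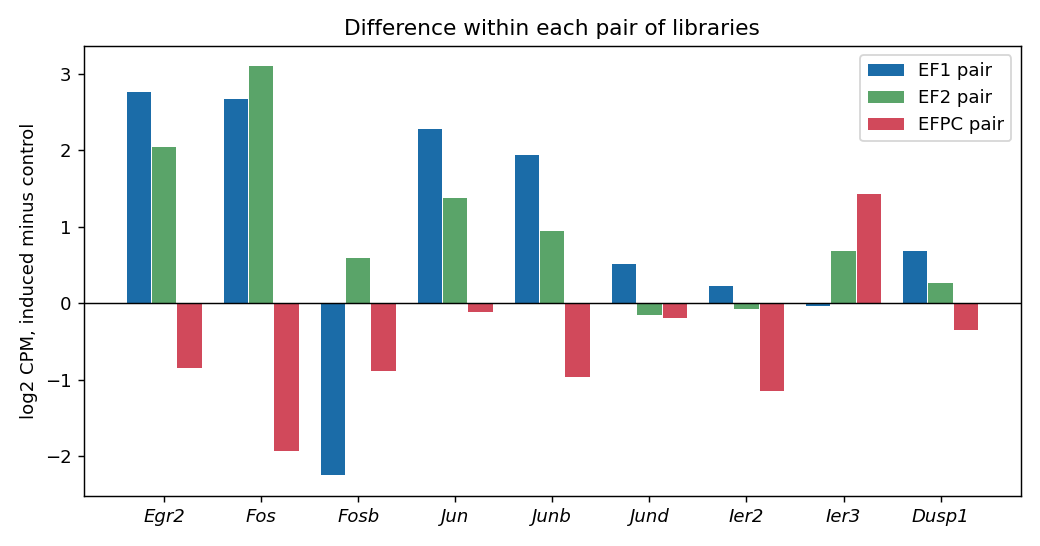
Difference in log2 CPM, induced minus control, for the 9 members within the EF1, EF2 and EFPC pairs, 1 bar per pair and no error because each pair is 1 library against 1. Egr2, Fos, Jun and Junb run upward in EF1 and EF2 (0.94 to 3.10) and downward in EFPC (-0.11 to -1.93), and Ier3 is the member that runs upward in EFPC.

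Ier2, a small nuclear protein gene (chromosome 8, 84661331 to 84662852), had 96.1, 91.2 and 28.8 CPM in induced and 82.6, 96.6 and 64.2 CPM in control libraries. The induced EFPC library was the lowest of the 6, and the other two induced libraries lay among the controls. The log2 fold change was -0.17 (SE 0.426, edgeR adjusted p = 0.861), and it turned to 0.07 without the EFPC pair.

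Ier3, a survival gene also known as IEX-1 (chromosome 17, 35821713 to 35822911), had 24.3, 39.2 and 37.9 CPM in induced and 24.8, 24.5 and 14.0 CPM in control libraries. It was the member whose 3 induced values all exceeded the control mean of 21.1 CPM, although induced EF1 lay just under 2 of the controls. The means were 33.8 ± 8.28 CPM in induced and 21.1 ± 6.14 CPM in control libraries (SD, n = 3 each). Ier3 had a log2 fold change of 0.68 (SE 0.283), with adjusted p = 0.277 in edgeR and 0.171 in DESeq2.

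Dusp1, a phosphatase that inactivates MAP kinases (chromosome 17, 26505591 to 26508472), had 8.03, 6.76 and 4.96 CPM in induced and 5.01, 5.63 and 6.34 CPM in control libraries. The induced EFPC library was the lowest and the other two induced libraries the highest of the 6. The log2 fold change was 0.22 (SE 0.252, edgeR adjusted p = 0.689).

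Compared within pairs, the members split by culture. In the EF1 pair 7 of 9 members were higher in the induced library, in the EF2 pair 7 of 9, and in the EFPC pair 1 of 9, against 46.2%, 49.3% and 47.9% of all tested genes. The members' median log2 difference, induced minus control, was 0.68, 0.68 and -0.85 in the 3 pairs, where the median of all tested genes was -0.04, -0.01 and -0.02. A pair is 1 library against 1, so these differences have no replicate check.

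Egr2 differed by 2.77, 2.05 and -0.85 on the log2 scale in the EF1, EF2 and EFPC pairs, and Fos by 2.67, 3.10 and -1.93. For Jun the differences were 2.28, 1.38 and -0.11, and for Junb 1.94, 0.94 and -0.97. These 4 genes therefore ran together, with Jun close to level in the EFPC pair. Ier2 differed by 0.22, -0.08 and -1.15 and Ier3 by -0.03, 0.68 and 1.43, so that these 2 genes moved apart in the EFPC pair. Fosb gave -2.25, 0.59 and -0.89, Jund 0.52, -0.15 and -0.19, and Dusp1 0.68, 0.26 and -0.35. A doubling or more, a log2 difference of at least 1, was seen for 4, 3 and 1 members in the EF1, EF2 and EFPC pairs, against 6.58%, 8.39% and 5.02% of all tested genes. A fall of at least 1 was seen for 1, 0 and 2 members, against 3.24%, 4.69% and 3.45% of all tested genes.

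Counting error in each pair is given by an exact 95% interval of the induced over control ratio (Clopper-Pearson on the 2 read counts). In the EFPC pair the ratio was 0.536 (0.332 to 0.853) for Egr2 and 0.243 (0.142 to 0.400) for Fos. It was 0.510 (0.477 to 0.545) for Junb, 0.449 (0.419 to 0.481) for Ier2 and 0.925 (0.733 to 1.17) for Jun. Beyond counting error, 7 members were above a ratio of 1 and 1 below it in the EF1 pair, where 31.7% of all tested genes were above and 37.2% below. In the EF2 pair 5 were above and 2 below, against 37.8% and 37.3% of all genes. In the EFPC pair 1 was above and 6 below, against 30.7% and 35.9% of all genes. These intervals do not cover differences between cultures.

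The same split was counted over all genes. Of the 13260 tested genes, 577 (4.35%) were at least 1 higher on the log2 scale in both the EF1 and the EF2 pair. Of the 577, 202 (35.0%) were lower in the induced EFPC library than in its control. Over all tested genes 47.9% were higher in the EFPC pair, so the 577 were not lower there more often than genes in general. Egr2, Fos and Jun were among both the 577 and the 202. Fos was also among the 41 of the 577 (7.11%) that were at least 1 lower in the EFPC pair, against 3.45% of all tested genes.

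When the EFPC pair was left out, 4 of the 9 members passed edgeR, all higher, against 16.2% of 13258 genes in either direction (9.81% higher, 6.37% lower). The same 4, Egr2, Fos, Jun and Junb, passed DESeq2, where 21.8% of 12581 genes passed (13.2% higher, 8.55% lower). The edgeR log2 fold changes over EF1 and EF2 alone were 2.48 (SE 0.3, adjusted p = 0.00219) for Egr2 and 2.97 (SE 0.305, adjusted p = 0.00104) for Fos. They were 1.82 (SE 0.274, adjusted p = 0.00571) for Jun and 1.48 (SE 0.25, adjusted p = 0.00905) for Junb. The other 5 members did not pass, at 0.48 for Dusp1, 0.36 for Ier3, 0.15 for Jund, 0.07 for Ier2 and -0.46 for Fosb. This fit has 2 libraries a group, and the EFPC pair was known to stand apart when it was left out. Leaving out the induced EFPC library alone also gave 4 members in edgeR, where 619 genes of the whole table were called higher and 273 lower. Leaving out any other single library gave 0 members and 0 genes of the whole table. Whether the EFPC pair differs from the others could not be tested, since it holds 1 library of each group.

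**Figure D3:**
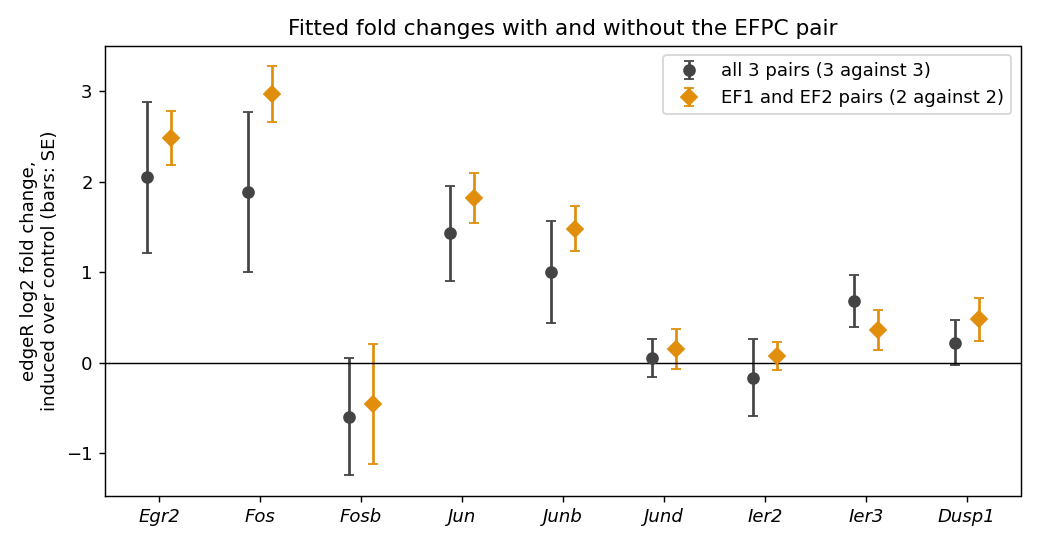
edgeR log2 fold change (induced over control) of the 9 members with SE bars, fitted over all 3 pairs and over the EF1 and EF2 pairs alone. Egr2, Fos, Jun and Junb move up and their SE shrinks when the EFPC pair is left out (Fos 1.89, SE 0.884, with it and 2.97, SE 0.305, without it), whereas Jund and Ier2 stay near 0. The EFPC pair was known to stand apart for Egr2, Fos, Jun and Junb when it was left out, so their shift follows from that choice.

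Levels per length, as the authors' TPM values, place the members in order. In induced libraries Junb averaged 127 ± 89.3 TPM, Ier2 91.2 ± 45.5, Ier3 60.7 ± 15.7 and Jund 46.5 ± 5.52 TPM (SD, n = 3), and neighbours in that order overlapped. Jun, Dusp1, Egr2 and Fos followed at means of 6.59, 6.58, 4.31 and 4.01 TPM, again with overlapping neighbours, and Fosb came last at 0.274 TPM, overlapping Fos. Jund and Jun were the neighbours that did not overlap. In control libraries the order was Ier2 at 96.1 ± 10.1, Junb at 60.2 ± 7.93, Jund at 42.0 ± 7.65, Ier3 at 34.7 ± 7.89 and Dusp1 at 5.34 ± 1.08 TPM, followed by Jun, Fos, Egr2 and Fosb at 2.30, 1.07, 0.976 and 0.393 TPM. There the ranges overlapped for Jund with Ier3, Jun with Fos, and Fos with Egr2.

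Among the 3 Jun genes, Junb made up 78.0%, 69.8% and 45.4% of the summed TPM in induced EF1, EF2 and EFPC and 60.0%, 54.3% and 58.9% in the controls. Jund made up 18.4%, 26% and 51.6% in induced and 37.9%, 43.3% and 39.0% in control libraries. The mix therefore leaned to Junb in the induced EF1 and EF2 libraries and to Jund in the induced EFPC library, and Jun stayed between 2.10% and 4.14% throughout. The 3 genes summed to 274, 188 and 78.0 TPM in induced and 87.8, 110 and 116 TPM in control libraries. Fos and Fosb together had 5.41, 6.85 and 0.608 TPM in induced and 1.28, 0.910 and 2.19 TPM in control libraries. Transcripts of the 3 Jun genes outnumbered those of Fos and Fosb in every library. Fosl1 and Fosl2, counted here with the AP-1 partners, also belong to the Fos family and are not in that sum. Fosl2 had 11.5, 9.61 and 8.36 TPM in induced and 7.04, 5.35 and 8.19 TPM in control libraries. Fosl1 had 2.91, 4.69 and 1.81 TPM in induced and 2.22, 2.32 and 3.22 TPM in control libraries.

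**Figure D4:**
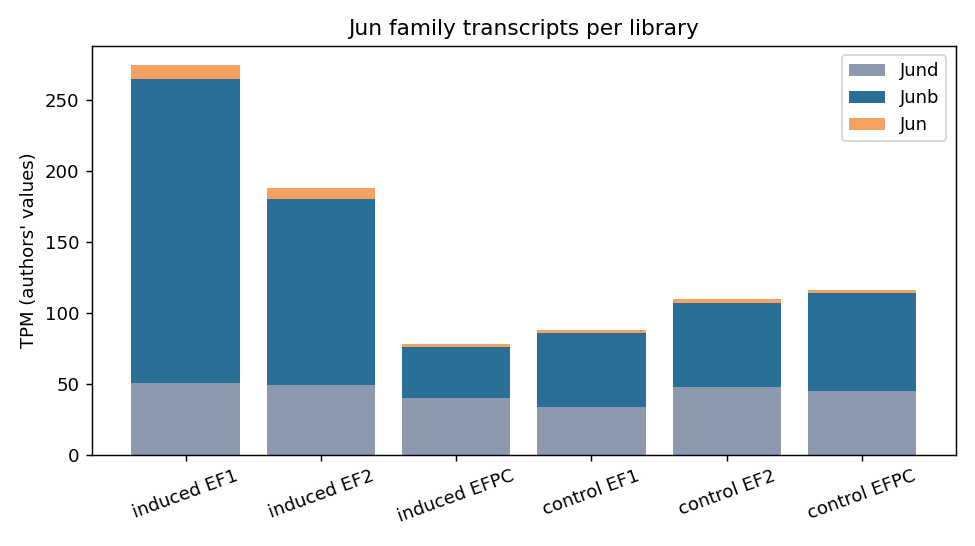
Stacked bars of the authors' TPM for Jund, Junb and Jun in each library, induced left and control right. The induced EF1 and EF2 bars reach 274 and 188 TPM, mostly Junb, and the induced EFPC bar (78.0 TPM) is the lowest of the 6.

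Genes that act with the members were examined by list, each against the shares of all genes given above. At an unadjusted edgeR p under 0.05 there were 1 of 6 AP-1 partners, 0 of 3 EGR and NAB genes, 3 of 6 serum response factor genes, 1 of 13 other immediate early genes, 1 of 9 other phosphatases, 2 of 9 MAP kinases and 1 of 6 heat shock genes, where 17.6% of all genes were. Of 9 listed AP-1 partners, 6 had a row and were tested, while Atf3, Batf2 and Batf3 had none. Of the 6, 0 passed edgeR and 1 was higher by DESeq2 (0 lower), with a median edgeR log2 fold change of 0.13. That gene, Atf7, which encodes a zipper protein that can pair with Jun, had 89.5, 95.6 and 82.6 CPM in induced and 54.8, 40.8 and 64.2 CPM in control libraries (DESeq2 log2 fold change 0.76, adjusted p = 0.018). Here the groups did not overlap, induced EFPC included. Of 4 listed EGR and NAB genes, Egr4 had no row, and none of the 3 tested passed either test, with a median of -0.04. The corepressors Nab1 and Nab2, which bind EGR proteins, had edgeR log2 fold changes of 0.10 and -0.04. The EGR gene of this list with a row, Egr3, had -0.5, with pair differences of -0.01, -0.15 and -1.49. It thus lacked the rise of Egr2 in the EF1 and EF2 pairs. Its levels were 2.97, 2.3 and 1.26 CPM in induced and 2.99, 2.56 and 3.65 CPM in control libraries.

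Of the 6 genes of serum response factor and its cofactors, 0 passed edgeR and 1 was higher and 1 lower by DESeq2, with a median of 0.21. Elk4, an ETS partner of the factor, had 39.5, 36.2 and 35.2 CPM in induced and 13.9, 7.58 and 23.7 CPM in control libraries (DESeq2 log2 fold change 1.31, adjusted p = 0.0181). Elk3, its relative that can repress, had 49.3, 51.4 and 59.8 CPM in induced and 78.5, 82.0 and 91.9 CPM in control libraries (DESeq2 log2 fold change -0.64, adjusted p = 0.0068). Both differed in the same direction in all 3 pairs, by 1.51, 2.25 and 0.57 for Elk4 and by -0.67, -0.67 and -0.62 for Elk3. Srf itself, chosen after its values were seen, had a log2 fold change of 0.05. Mrtfa, a cofactor likewise chosen afterwards, had 29.4, 47.1 and 87.1 CPM in induced and 27.7, 25.4 and 25.1 CPM in control libraries. Its highest value was thus in the induced EFPC library, and it did not pass without the replicate block (DESeq2 adjusted p = 0.0568).

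Of 23 listed other immediate early genes, 13 had a row and were tested. Those without a row, among them Nr4a1, Nr4a3, Klf2, Klf4 and Arc, cannot be read as unchanged. Of the 13, 1 was higher by DESeq2, 0 lower, and 0 passed edgeR, with a median of 0.29. Zfp36, which encodes an RNA-binding protein that speeds the decay of inflammatory transcripts, had 32.2, 18.3 and 4.05 CPM in induced and 5.91, 5.24 and 5.38 CPM in control libraries (DESeq2 log2 fold change 1.74, adjusted p = 0.0441). Its libraries fell in the same order as those of Egr2 and Junb in the induced group. The DESeq2 call of Zfp36 was absent with the replicate block, which called Btg2 in its place. In the EF1, EF2 and EFPC pairs, 10, 12 and 4 of the 13 genes were higher, with medians of 0.73, 0.28 and -0.19. Myc and Mcl1, chosen after their values were seen, had log2 fold changes of 0.06 and 0.02.

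Of 11 listed other dual-specificity phosphatases, 9 had a row and were tested. Of the 9, 0 were higher and 1 lower by DESeq2 and 0 passed edgeR, with a median of -0.12. Dusp14 was the lower one, with 3.31, 3.43 and 6.33 CPM in induced and 8.85, 7.36 and 12.4 CPM in control libraries (DESeq2 log2 fold change -1.11, adjusted p = 0.0339). Dusp6, a cytoplasmic MAP kinase phosphatase, was chosen after its values were seen. It had 214, 121 and 40.8 CPM in induced and 122, 89.9 and 104 CPM in control libraries, with pair differences of 0.81, 0.43 and -1.36 and no call over the 3 pairs. The phosphatases as a group were higher for 5, 7 and 1 of 9 genes in the 3 pairs.

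None of the 9 MAP kinase genes passed either test over all pairs, with a median of -0.04. Mapk14, which encodes p38 alpha, had a log2 fold change of -0.16 by edgeR (adjusted p = 0.699). Of 8 listed heat shock genes, some of which respond to handling stress, 6 had a row and were tested, while Hspa1a and Hspa1b had none. None of the 6 passed, with a median of -0.33. They summed to 4070, 3610 and 4950 CPM in induced and 5090, 3780 and 7230 CPM in control libraries, so both EFPC libraries were the highest of their group. Their part in the member values was not tested.

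Genes with the most similar pattern were sought for Fos, Jun and Junb among 9478 genes averaging 5 CPM or more, by the root mean square difference of centred log2 CPM over the 6 libraries. For Jun these were Tlr6, a toll-like receptor gene (0.121), Mtm1, a lipid phosphatase gene (0.143), and Zup1, a ubiquitin peptidase gene (0.159). Junb came closest to Il15ra, a cytokine receptor gene (0.219), the tryptophan tRNA ligase gene Wars (0.233) and Stambpl1 (0.250). Fos was further from any gene, with Paqr3 (0.460), the serpin gene Serpina3g (0.477) and the interferon-inducible gene Ifi47 (0.507). The measure is not scaled for how much a gene varies, so genes that vary little come out close and those with large swings far apart. Among the members themselves the closest were Jund with Dusp1 (0.199) and Jun with Junb (0.329), and Egr2 was about as far from Junb (0.571) as from Jun (0.574) and Fos (0.580). Fosb and Egr2 were the farthest apart (1.71).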

How the data were processed

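RNA was read with the TruSeq Stranded mRNA kit, per the labels' protocols. The submitters' processing notes name HISAT2, DESeq2 and the mm10 build, while the sources used here do not name a counting program. The authors deposited raw read counts per gene, TPM values, and a comparison with a signed fold change and an adjusted p-value. Every gene in the table has a count of at least 1 in each library. The 12 other per-sample columns (FPKM, and columns whose headers begin with N) were not used. A DESeq2 fit of the deposited counts gave the deposited log2 fold changes within 5.5e-07.

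Counts were tested in R 4.3.3 with edgeR 4.0.16 (quasi-likelihood test, TMM scaling, filterByExpr, group as the only term, Benjamini-Hochberg adjustment over all tested genes, two-sided) and DESeq2 1.42.0. SE values in edgeR come from the fold change and its F statistic. CPM are TMM-scaled, and pair differences are log2 CPM with a prior count of 2. The exact permutation test of 3 against 3 cannot give a p below 0.1. Deviations of same-numbered libraries from their group means correlated at 0.174 for EF1, 0.342 for EF2 and 0.352 for EFPC. Induced EF2 with control EF1 gave 0.149 and induced EF1 with control EF2 gave 0.099. EFPC libraries with EF1 or EF2 libraries gave -0.397 to -0.183. Deviations from a group mean cancel out within the group, so positive values for some libraries force negative values for others. With that limit, these values set EFPC apart more than EF1 from EF2. They cannot decide the pairing, which rests on the title prefix and replicate number. A fit with the replicate block was an alternative. Scripts were tested on simulated data. Totals of 30970019 to 43177842 counts leave Fosb and Fos with the fewest reads among the members.

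Members and gene lists were chosen with earlier results of these data known. Genes named were all members with a row, Etv6, up to 4 DESeq2-called genes of each list (edgeR called none) or else the 2 most abundant, and the 3 genes nearest in pattern to Fos, Jun and Junb. One gene that this rule names is not reported here. Alternatives were another scaling, no filter, DESeq2, the replicate block, leaving out libraries or pairs, TPM ratios and another prior count.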

Additional observations from a re-analysis of the deposited data

How the results depend on the processing

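Over the whole table edgeR called 0 genes, and DESeq2 called 558 higher and 348 lower, or 770 and 569 with the replicate block. Without the EFPC pair edgeR called 1300 higher and 844 lower, and DESeq2 1666 and 1076. Leaving out 1 library gave 0 to 619 higher and 0 to 273 lower, all calls coming without induced EFPC. Members called higher were 0 to 4 over the single libraries left out, and 4 without the EFPC pair in edgeR and in DESeq2. With the replicate block, edgeR called 0 members and 0 genes, and DESeq2 0 members. The blocked edgeR log2 fold changes for Egr2, Fos, Jun and Junb were 1.49, 1.57, 1.21 and 0.66. The block changed no call of a member.

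List counts in either direction are given by DESeq2, DESeq2 with the block, edgeR without the EFPC pair and DESeq2 without it. These fits called 6.9%, 11.1%, 16.2% and 21.8% of all tested genes. The counts were 1, 1, 2 and 2 of 6 AP-1 partners and 2, 3, 2 and 2 of 6 serum response factor genes. They were 1, 1, 2 and 4 of 13 other immediate early genes, 1, 1, 3 and 4 of 9 phosphatases, and 0, 0, 1 and 2 of 9 MAP kinases. The EGR and NAB list and the heat shock list had 0 in all 4 fits. Over single libraries left out, the list counts were 0 to 1 for serum response factor genes and 0 to 2 for the other immediate early genes and the phosphatases. Their highest counts came without induced EFPC, as did all calls over the whole table.

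Of 135 alternative fits of a member, 114 kept direction and side of the threshold, 12 passed it (Egr2, Fos, Jun and Junb without induced EFPC or the EFPC pair) and 9 changed sign. Fosb was 0.08 and Dusp1 -0.03 without the EF1 pair. Jund was -0.17 without that pair, -0.03 without induced EF1 and -0.10 without control EF1. Ier2 was 0.21 without induced EFPC, 0.00 without control EF2, and 0.07 (edgeR) and 0.08 (DESeq2) without the EFPC pair. As TPM ratios, Jund and Ier2 in the EF2 pair were 0.04 and 0.11 and Ier3 in the EF1 pair 0.05, and 18 of the pair differences were above 0, against 15 by CPM. By CPM, 5 of 9 members kept their TPM place in each group. The cause of these changes was not tested. Leave-one-out log2 fold changes ran from 1.41 to 2.60 for Egr2, 1.41 to 2.43 for Fos, 1.04 to 1.86 for Jun, 0.39 to 1.46 for Junb, -1.65 (without induced EF2) to -0.22 for Fosb, -0.1 to 0.26 for Jund, -0.44 to 0.21 for Ier2, 0.46 to 0.87 for Ier3 and 0.05 to 0.39 for Dusp1. With 3 libraries a group, depth limits Fosb (6 to 46 reads a library) most.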
